A study of Mus musculus with 6 samples.

Results

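The genes described here are 10 genes of the ATF4 pathway, which cells use to adapt to a shortage of amino acids and to other stresses. They are *Atf4*, *Ddit3*, *Trib3*, *Chac1*, *Sesn2*, *Asns*, *Psat1*, *Phgdh*, *Shmt2* and *Slc7a11*. They were chosen by name from 55401 genes in the count table, and 9 of the 10 passed the filter on low counts, as did 16784 genes in all. RNA-seq had been made from whole mouse embryos at E10.5 in 2 groups on a C57BL/6J background. WT embryos were wild-type littermates, and 5C embryos carried 5 tandem copies of the microRNA gene *Mir483* at its own place in an intron of *Igf2*. Per the study's methods the 5C line came from edited embryonic stem cells, and each of the 3 libraries of a genotype was a pool of a pair of male embryos, so single embryos could not be compared. The copies sit in *Igf2*, a gene with broad embryonic expression, and no tissue was separated, so fewer cells of a type and less RNA per cell cannot be told apart.

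When uncharged tRNA, misfolded proteins, heme shortage or viral RNA activate an eIF2 kinase, general translation falls while the ATF4 protein is made more efficiently from its mRNA. ATF4 then binds elements near genes for amino acid synthesis, amino acid import, tRNA charging and redox control, and this programme is called the integrated stress response. Much of the control of ATF4 itself is therefore translational and cannot be read from mRNA counts. *Ddit3* (CHOP) and *Trib3* are targets that feed back on the response, and *Phgdh*, *Psat1* and *Shmt2* make serine and one-carbon units, which growing embryos use for nucleotide synthesis.

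The sequences that bear on the comparison are the microRNAs of the edited gene and the elements that ATF4 can bind. Both mature microRNAs come from RefSeq on GRCm38.p6, chromosome 7, minus strand, and capitals mark the seed, bases 2 to 8, with which a microRNA pairs to its targets.
miR-483-3p (chr7:142654932-142654952): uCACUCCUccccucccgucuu
miR-483-5p (chr7:142654968-142654989): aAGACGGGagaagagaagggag
The 2 seeds differ. In the 3′ UTR of the longest annotated coding transcript, a site was counted if its letters pair with bases 2 to 8. Letters that pair with bases 2 to 7 and are followed by an A were counted too. Such sites for miR-483-3p were found in 1 of the 10 genes, against 17.8% of 13886 genes tested that had a 3′ UTR. Those for miR-483-5p were found in 0 of 10, against 4.48%. The match lies in *Sesn2*, at bases 748 to 754 of a UTR of 1684 bases, and is shown with its flanks, the paired bases in capitals.
*Sesn2* site: gctgtctgaagagtaAGGAGTGgct
The UTRs of the 10 genes run from 81 bases in *Atf4* to 7364 bases in *Slc7a11*, with a median of 717 bases against 1200 bases over the genes tested. A seed match is a description of letters and not a measured target.

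The promoter windows of RefSeq (GRCm38.p6), from 250 bases before to 50 bases after each start, were searched on both strands for TGATGNAA, the core that ATF4 dimers bind. *Trib3*, *Chac1*, *Asns* and *Slc7a11* held it, *Slc7a11* in 2 places, and the other 6 genes had no such letters in this window. The element was in 3.97% of 32851 promoters, and its form TGATGCAA, found here in *Chac1* and *Slc7a11*, in 0.895%. The windows upstream of the start are shown in the direction of the gene, with the element in capitals, because these are the members whose promoters carry it.
*Chac1* (193 bases before the start, chr2:119351038-119351067, plus strand gene): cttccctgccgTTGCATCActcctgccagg
*Asns* (23 bases before, chr6:7693214-7693243, minus strand gene): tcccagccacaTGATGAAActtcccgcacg
*Slc7a11* (66 bases before, chr3:50443661-50443690, minus strand gene): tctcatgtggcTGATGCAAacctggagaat
*Slc7a11* (47 bases before, chr3:50443642-50443671, minus strand gene): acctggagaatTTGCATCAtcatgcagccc
The element of *Trib3* lies 14 bases after its start. The genes with the element include the least abundant member, *Chac1*, and the third most abundant, *Asns*.

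Libraries held 6357343 to 19151368 counts, and levels are given in CPM, counts divided by each library's scaled total. At this depth 3 counts, taken as the floor of detection, equal 0.157 to 0.472 CPM, with counting error alone considered. *Mir483* itself stood at 0.577, 0.429 and 0.319 CPM in the WT libraries and at 5.15, 4.35 and 2.56 CPM in the 5C libraries, so the libraries matched their labels, although the gene did not pass in edgeR's quasi-likelihood test (adjusted p 0.169). *Mir483* did pass in DESeq2 (adjusted p 1.6e-05), with robust moderation in edgeR (0.00844) and without 5C replicate 3 (0.0256). It also passed without a count filter (5.2e-16), a setting that called 319 genes. WT replicate 3 held 2 counts of *Mir483*, under the floor. These reads come from longer transcripts and do not measure the mature microRNAs. Markers of a whole embryo were present in every library, from *Tbx5* at 5.67 to 9.25 CPM to *Hbb-y* at 4764 to 9330 CPM. *Sox2*, for example, stood at 74.2 to 95.9 CPM. Libraries stood apart in marker genes of other tissues. The summed level of 12 yolk sac endoderm markers came to 6778, 240 and 521 CPM in the WT libraries and 182, 189 and 1346 CPM in the 5C libraries, with all 12 highest in WT replicate 1 and none at 0 in any library. The summed level of 7 decidual markers was 10.49 to 49.3 CPM in WT and 12.64 to 55.74 CPM in 5C. Of the 7, 6 were highest in 5C replicate 3 and 1 was at 0 in some library. They include granzymes of killer cells and *Prl8a2*, a prolactin gene, so the sum does not measure killer cells alone. The summed level of 7 primitive erythroid markers came to 12201, 9038 and 12373 CPM in the WT libraries and 16107, 11215 and 8241 CPM in the 5C libraries.

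Between genotypes, 0 of the 9 genes tested changed, where a change meant an adjusted p under 0.05 and a fold over 1.5. Over all genes the same rule called 0 of 16784, or 0%. At an unadjusted p under 0.05 there was 1 gene of the 9, *Phgdh*, which was lower in 5C. By that looser measure 6.02% of all genes passed (1011 genes), 3.47% lower and 2.55% higher in 5C, so the members' share, 1 of 9 or 11.1%, rests on a single gene. In 0 of the 9 were the 3 values of the genotypes apart, against 11.4% of all genes. The log2 fold changes ran from -0.39 to 0.48, with 6 above 0 and 3 below, and their median was 0.09 against -0.00 over all genes. The 95% interval stayed within 1.5-fold either way for 7 of the 9 genes (77.8%, against 67.6% of all genes), and *Trib3* and *Phgdh* were the exceptions.

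**Figure D1:**
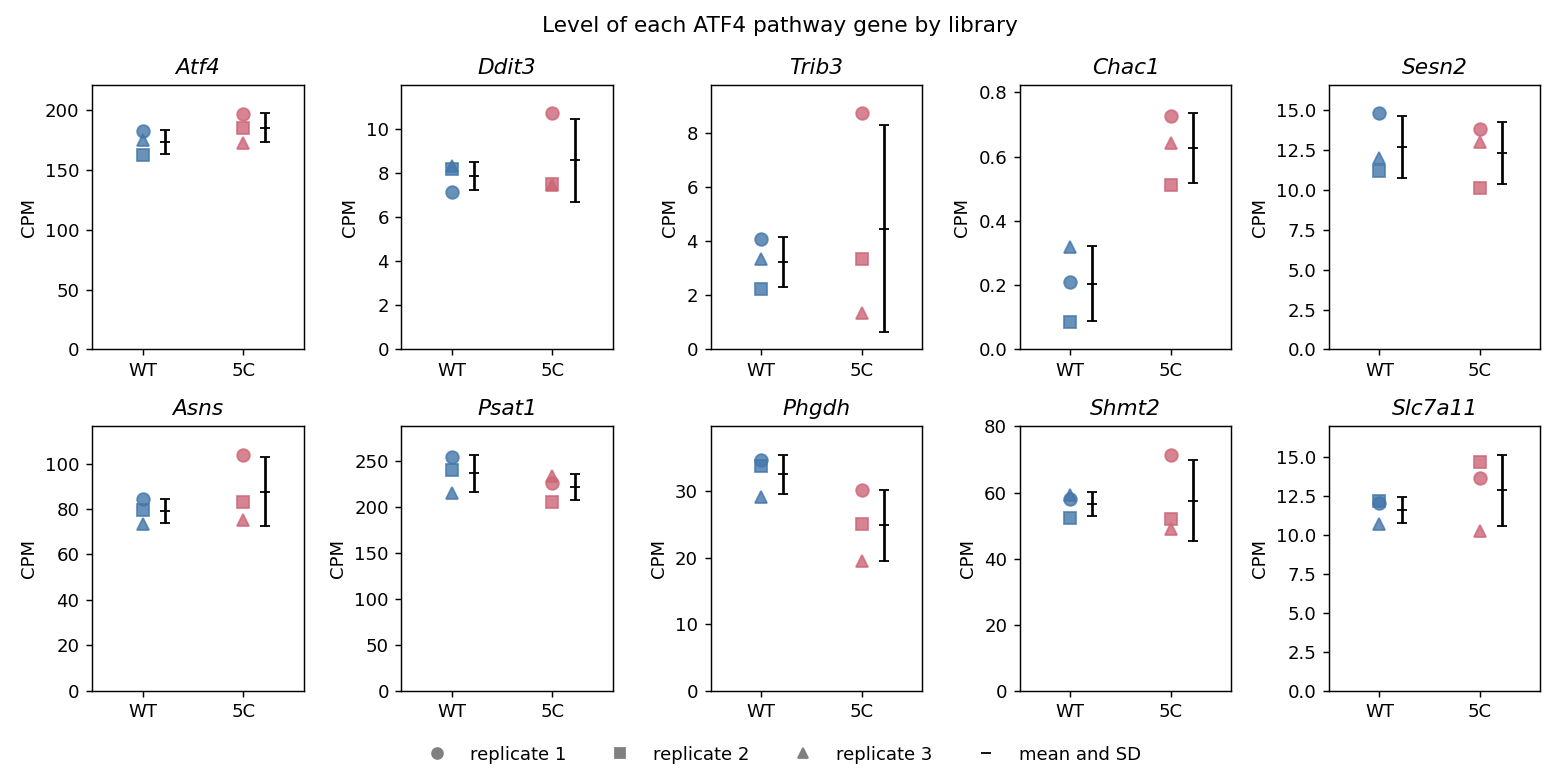
Level of each of the 10 genes in CPM (linear axes from 0) in the WT and 5C libraries, with 1 symbol per replicate and the mean with SD beside the points. Genotypes overlap in every panel but that of *Chac1*, and 5C replicate 1 is the highest library in 6 of the 10 panels.

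The levels of the genes differed far more from each other than between genotypes. Per kilobase of annotated exon, *Atf4* was the most abundant at 75.9 CPM per kilobase over the 6 libraries, a level above that of 97.5% of the genes tested. *Psat1* followed at 53.9, *Asns* at 30.5, *Shmt2* at 18.3 and *Phgdh* at 11.6 CPM per kilobase, and among these 5 genes no library of one reached a library of the next. *Ddit3* at 4.8 and *Sesn2* at 3.59 CPM per kilobase overlapped, as did *Sesn2* and *Trib3* (1.81) and *Trib3* and *Slc7a11* (0.882). *Chac1* was last at 0.254 CPM per kilobase, below every library of *Slc7a11*. The enzymes of amino acid synthesis thus stood between *Atf4* and the stress-induced regulators. With the length of the longest coding transcript in place of all exons the order of the means was the same, but the gaps were not. *Atf4* (from 94.2) then overlapped *Psat1* (up to 97.5) and *Phgdh* (10.3 to 18.3) overlapped *Ddit3* (8.02 to 12.1), while *Ddit3* no longer overlapped *Sesn2*.

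**Figure D2:**
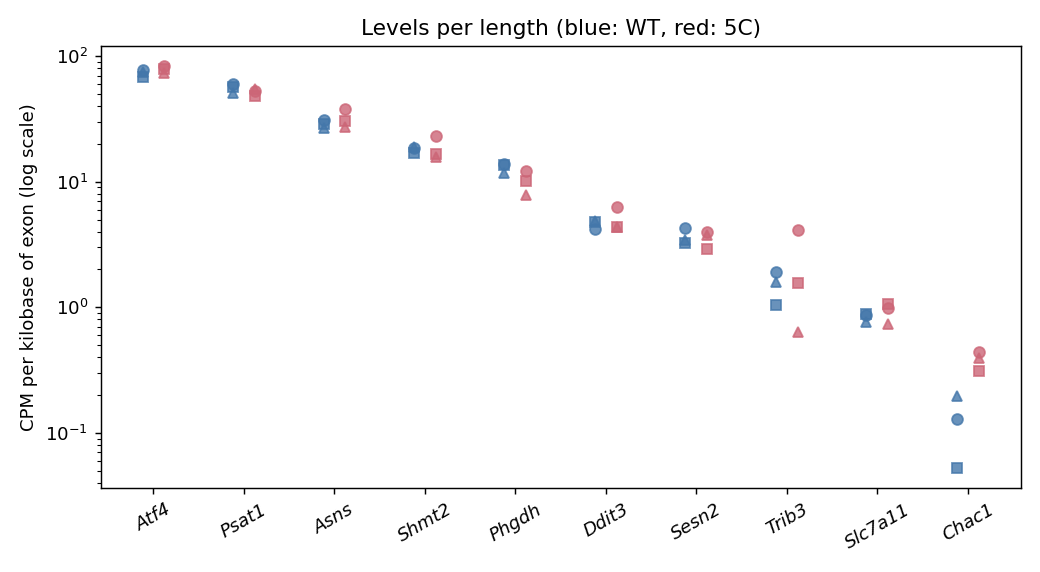
CPM per kilobase of exon (log axis) for each gene, ordered by the mean of the 6 libraries, with WT in blue, 5C in red and 1 symbol per replicate. *Atf4* and *Psat1* lie near the top of the axis at 75.9 and 53.9, and *Chac1* at the bottom at 0.254.

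Among the transcription factors, *Atf4* (ENSMUSG00000042406, chromosome 15, 80255184 to 80257541, plus strand) encodes the factor that carries out the response. It stood at 182, 162 and 175 CPM in the WT libraries and at 197, 185 and 172 CPM in the 5C libraries. The groups overlapped, with 5C replicate 3 between the WT libraries. The log2 fold change was 0.09 with an SE of 0.07 and a 95% interval from -0.07 to 0.26 (edgeR, adjusted p 0.804). *Ddit3* (ENSMUSG00000025408, chromosome 10, 127290774 to 127296288) encodes CHOP, a factor made under prolonged stress that can lead to cell death. It stood at 7.14, 8.16 and 8.3 CPM in the WT libraries and at 10.7, 7.51 and 7.47 CPM in the 5C libraries. Only 5C replicate 1 stood above the WT range, and the other two 5C libraries lay inside it. The log2 fold change of 0.14 (SE 0.18, adjusted p 0.883) went to -0.061 without 5C replicate 1. Of its 1713 exon bases, 105 lie under a second annotated *Ddit3* gene on the same strand, which had 0 counts in all libraries, and 68 lie opposite *Mars*, the more abundant gene. Whether reads of *Mars* entered the *Ddit3* count was not tested.

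Feedback and sensor genes are pathway targets that damp growth or the response. *Trib3* (ENSMUSG00000032715, chromosome 2, 152337422 to 152344032) encodes a pseudokinase that binds ATF4 and AKT. It stood at 4.09, 2.23 and 3.35 CPM in the WT libraries and at 8.73, 3.33 and 1.35 CPM in the 5C libraries, from 19 to 144 counts. The highest and the lowest of the 6 libraries were both 5C, and the WT libraries lay between them. Its coefficient of variation was 85.4% in 5C, more than that of 99.0% of the genes at 1 to 10 CPM, against 29.0% in WT. Between genotypes the log2 fold change was 0.48 with a 95% interval from -0.75 to 1.70 and an adjusted p of 0.863, and it was -0.49 without 5C replicate 1 and 0.91 without 5C replicate 3 (unadjusted p 0.0492). *Sesn2* (ENSMUSG00000028893, chromosome 4, 132492032 to 132510501) encodes a sestrin that senses leucine and restrains mTORC1, and is the member with the miR-483-3p seed match shown above. It stood at 14.8, 11.2 and 12 CPM in the WT libraries and at 13.8, 10.1 and 13.0 CPM in the 5C libraries, which overlapped throughout. Its log2 fold change was -0.05 (95% interval -0.41 to 0.31, adjusted p 0.961), and was above 0 without WT replicate 1 (0.1), without 5C replicate 2 (0.067) and with offsets for GC content (0.0067).

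*Chac1* (ENSMUSG00000027313, chromosome 2, 119351229 to 119354381) encodes an enzyme that breaks down glutathione and is among the genes that respond most to ATF4. It was the only member below the count filter and so was not in the fit. Its counts were 4, 1 and 2 in WT and 12, 6 and 9 in 5C, or 0.21, 0.0859 and 0.319 CPM against 0.727, 0.512 and 0.641 CPM. No WT library reached any 5C library, and WT replicates 2 and 3 held fewer than the 3 counts of the floor. Summed over libraries, 27 counts in 5C against 7 in WT gave a ratio of 3.37 with an exact interval of 1.43 to 9.18, which covers counting error and not the spread between embryos. Among 3177 genes outside the test with 20 to 60 counts in all, as *Chac1* had with 34, 4.31% were likewise higher in every 5C library. In the fit without a count filter, which called 319 of 33139 genes (0.963%), *Chac1* differed by 1.70 on the log2 scale (SE 0.62) and did not pass (edgeR, adjusted p 0.275).

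*Asns* (ENSMUSG00000029752, chromosome 6, 7675169 to 7693254) encodes asparagine synthetase, whose promoter element is printed above. It stood at 84.4, 79.6 and 73.5 CPM in the WT libraries and at 104, 83.2 and 75.1 CPM in the 5C libraries. Here too 5C replicate 1 alone lay above the WT range. 5C exceeded WT by 0.14 on the log2 scale, with a 95% interval from -0.12 to 0.41 and an adjusted p of 0.811, and it was -0.004 without that library. *Slc7a11* (ENSMUSG00000027737, chromosome 3, 49892526 to 50443614) encodes the light chain of the cystine and glutamate exchanger, which supplies cysteine for glutathione. It stood at 12.1, 12.2 and 10.7 CPM in the WT libraries and at 13.7, 14.7 and 10.3 CPM in the 5C libraries, so the lowest library was also 5C. The log2 fold change was 0.14 (95% interval -0.20 to 0.48, adjusted p 0.858). Its heavy chain partner *Slc3a2*, named after its values were seen, differed by -0.06 on the log2 scale (adjusted p 0.891).

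The serine and one-carbon enzymes included the only member past an unadjusted threshold. *Phgdh* (ENSMUSG00000053398, chromosome 3, 98313170 to 98339990) encodes the first enzyme of serine synthesis from glucose. It stood at 34.7, 33.8 and 29.2 CPM in the WT libraries and at 30.2, 25.1 and 19.5 CPM in the 5C libraries. The groups overlapped, because 5C replicate 1 lay above WT replicate 3. The log2 fold change was -0.39 with an SE of 0.15 and a 95% interval from -0.73 to -0.05. With an unadjusted p of 0.0284, *Phgdh* did not pass after adjustment in edgeR (adjusted p 0.781). Its unadjusted p was above 0.05 when WT replicate 1 (0.0772), WT replicate 2 (0.0676), 5C replicate 2 (0.0649) or 5C replicate 3 (0.0833) was left out, and the log2 fold change then lay between -0.40 and -0.24. It was -0.56 without 5C replicate 1 (unadjusted p 0.00402) and -0.46 without WT replicate 3 (0.0259). A pseudogene, *Phgdh-ps1*, is annotated, and how reads were shared with it was not tested.

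*Psat1* (ENSMUSG00000024640, chromosome 19, 15904678 to 15947337) encodes the next enzyme, a transaminase. It stood at 255, 241 and 215 CPM in the WT libraries and at 226, 206 and 234 CPM in the 5C libraries, and the groups overlapped, with WT replicates 1 and 2 above every 5C library and 5C replicate 2 below every WT library. A log2 fold change of -0.10 had a 95% interval from -0.28 to 0.08 and an adjusted p of 0.814. *Psph*, the last enzyme of serine synthesis, named after its values were seen, differed by -0.13 (adjusted p 0.884). *Shmt2* (ENSMUSG00000025403, chromosome 10, 127517123 to 127522444) encodes the mitochondrial enzyme that splits serine into glycine and a one-carbon unit. It stood at 58.0, 52.3 and 59.2 CPM in the WT libraries and at 71.5, 51.9 and 49.0 CPM in the 5C libraries, and the 5C libraries lay on both sides of WT. For *Shmt2* the log2 fold change was 0.03 (95% interval -0.27 to 0.33, adjusted p 0.98) and was -0.16 without 5C replicate 1. Of its exon bases 32 lie opposite *Ndufa4l2*, and whether reads of that gene entered the count was not tested. *Mthfd2*, the mitochondrial enzyme after it and also named after its values were seen, lay between 70.5 and 76.6 CPM in every library, with a log2 fold change of 0.05 (adjusted p 0.877).

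**Figure D3:**
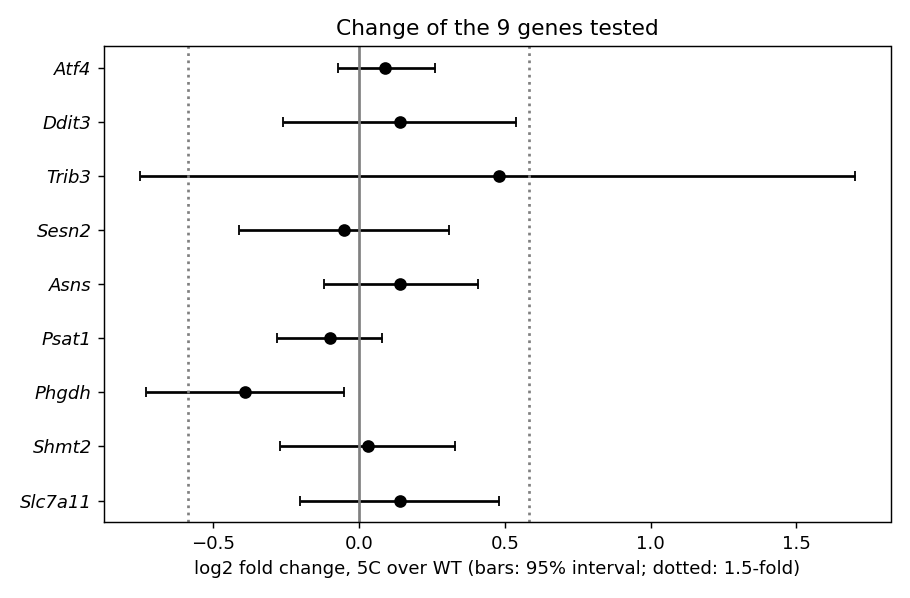
Log2 fold change of 5C over WT for the 9 genes tested, with bars for the 95% interval and dotted lines at 1.5-fold either way. The interval of *Trib3*, from -0.75 to 1.70, is the widest, and that of *Phgdh*, from -0.73 to -0.05, is the only one that does not cross 0.

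In many of these genes 5C replicate 1 stood apart from the other 5C libraries. Of the 10 genes, 6 (*Atf4*, *Ddit3*, *Trib3*, *Chac1*, *Asns* and *Shmt2*) were highest in 5C replicate 1, or 5 of the 9 tested (55.6%), where 13.1% of all genes tested were highest in that library. The share was 33.3% among the other ATF4 target genes (7 of 21) and 32% among the amino acid transporters (8 of 25). Some genes, *Slc3a2* among them, are in both of these lists, so the 2 shares are not independent. Among the tRNA synthetases it was 25% (5 of 20), and in the other 5 lists of related genes at most 13%. None of the 10 was lowest in 5C replicate 1, and 4 were lowest in 5C replicate 3. On the scale of log2 (CPM + 0.1), 5C replicate 1 exceeded the mean of the other two 5C libraries by 1.98 for *Trib3*, or 3.95-fold, by 0.51 for *Ddit3* and by 0.50 for *Shmt2*. *Psat1* differed least, by 0.04. This pattern was described after the values were seen and has no test of its own. Without 5C replicate 1 the median log2 fold change of the 9 genes was -0.11 in place of 0.09. Of the erythroid markers, 6 of the 7 were also highest in 5C replicate 1. By level of *Trib3* the libraries fell in the same order as by summed erythroid markers, except that WT replicates 1 and 3 changed places. Of the other genes highest in 5C replicate 1, *Shmt2* was lowest in 5C replicate 3, as was the summed erythroid level. *Ddit3* was lowest in WT replicate 1, *Asns* in WT replicate 3, and *Atf4* and *Chac1* in WT replicate 2. *Alas2*, the enzyme of heme synthesis in red cells, had a log2 fold change of 0.19, *Hbb-y* of 0.12 and *Klf1* of 0.10 between genotypes, and these were -0.18, -0.17 and -0.17 without 5C replicate 1. The part of the erythroid cells in the pattern was not tested.

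**Figure D4:**
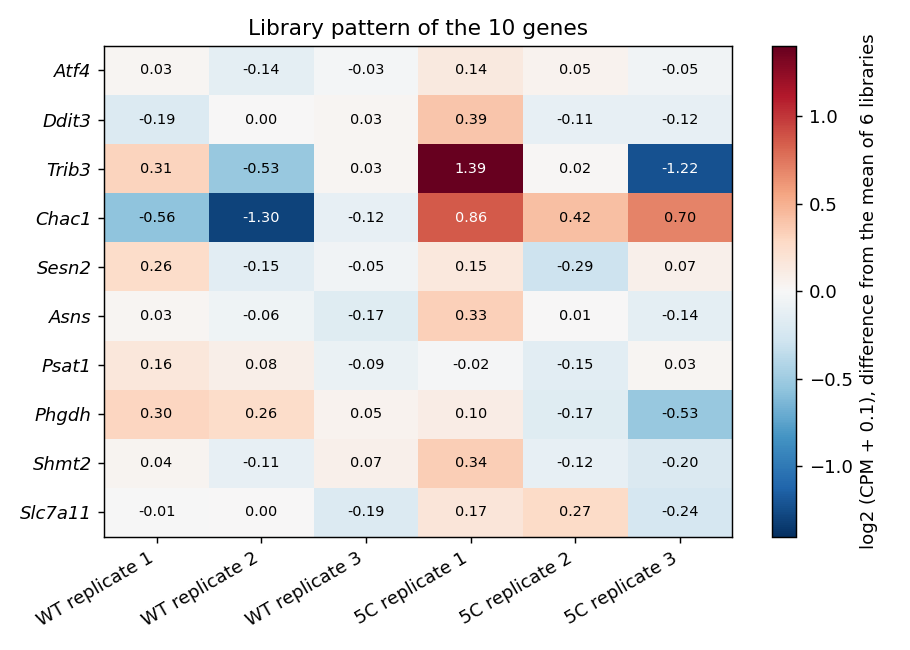
Difference of log2 (CPM + 0.1) from the mean of the 6 libraries, for each gene (rows) and library (columns), printed in each cell and coloured from blue (lower) to red (higher). The largest differences are those of *Trib3*, 1.39 in 5C replicate 1 and -1.22 in 5C replicate 3, and *Chac1*, -1.30 in WT replicate 2.

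Upstream of ATF4, the 17 kinases, phosphatases and eIF2 factors were all tested, with 0 called and 0 at an unadjusted p under 0.05. Their median log2 fold change was -0.04. *Gcn1l1*, the partner of the amino acid sensing kinase GCN2, had -0.21 and *Eif2b2*, a subunit of the eIF2 exchange factor, -0.22. *Ppp1r15a*, whose product GADD34 brings the phosphatase back to eIF2, was 10.2 ± 2.07 CPM in the WT and 12.6 ± 1.1 CPM in the 5C libraries (SD, n = 3 each), a difference of 0.29 on the log2 scale (adjusted p 0.781). With each library left out in turn, the difference ran from 0.19 to 0.5 (edgeR, unadjusted p 0.00805 to 0.292). It was 0.5 without WT replicate 1, where 1 gene of the list was higher at an unadjusted p under 0.05. Without 5C replicate 1, 3 genes of the list were lower by that measure.

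Of 24 other ATF4 target genes, 21 were tested and 0 were called. At the unadjusted threshold 1 was higher and 1 lower (9.52%, against 6.02% of all genes). The median was 0.01, and groups were apart in 4 of 21, against 11.4% of all genes. *Vegfa*, the vascular growth factor, stood at 66.9, 75.9 and 72.6 CPM in the WT libraries and at 89.3, 82.0 and 94.6 CPM in the 5C libraries, so that every 5C library was above every WT library. On the log2 scale it differed by 0.31 (unadjusted p 0.00381, adjusted p 0.781). *Sqstm1*, the autophagy receptor p62, was lower in every 5C library, with a log2 fold change of -0.28. *Aldh1l2*, a mitochondrial folate enzyme, had 0.34. *Nupr1*, *Fgf21* and *Gdf15*, secreted or nuclear markers of the response, were under the count filter, with at most 12, 0 and 8 counts in any library.

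In amino acid import, 25 of 26 transporters were tested and 0 were called, with 3 lower at the unadjusted threshold and a median of -0.04. *Slc38a1*, a glutamine transporter, was lower in every 5C library, at 183 ± 20.2 CPM in the WT and 158 ± 6.31 CPM in the 5C libraries (SD, n = 3 each). *Slc7a7*, a cationic amino acid exchanger, stood at 13.5, 3.61 and 4.15 CPM in the WT libraries and at 3.76, 2.39 and 3.84 CPM in the 5C libraries, and *Slc43a2*, a transporter of large neutral amino acids, 23.3, 11.7 and 13.2 CPM against 10.7, 10.9 and 12.4 CPM. Both were high in WT replicate 1, the library in which all 12 yolk sac markers were highest. Without it their log2 fold changes of -1.15 and -0.53 were -0.19 and -0.13. Without that library 0 of the 25 transporters passed the unadjusted threshold. *Slc38a1*, however, was highest in WT replicate 3, at 204 CPM against 182 CPM in WT replicate 1. The part of yolk sac tissue in the values of these transporters was not tested.

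Around serine, 23 of 24 genes of the serine, glycine and folate cycle were tested, with 0 called, 0 at the unadjusted threshold and a median of -0.02. *Folr1*, a folate receptor of the yolk sac, was 28.0 CPM in WT replicate 1 and 1.88 to 6.98 CPM elsewhere, and its log2 fold change of -1.75 was 0.23 without that library. *Mtr*, methionine synthase, had -0.15 and *Aldh1l2*, also in this list, 0.34. All 20 cytosolic aminoacyl-tRNA synthetases were tested. None was called, 2 were lower at the unadjusted threshold, and the median was -0.03. *Mars*, at 119 ± 9.94 CPM in the WT and 103 ± 3.04 CPM in the 5C libraries (SD, n = 3 each), and *Farsa* were lower in every 5C library, with log2 fold changes of -0.22 and -0.17, and *Iars* had -0.12.

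Of 20 genes of the unfolded protein response in the endoplasmic reticulum, 0 were called, with a median of -0.04. At the unadjusted threshold 1 was lower (5.0%, against 6.02% of all genes in either direction). That gene was the chaperone *Hyou1* (-0.19), and the degradation factors *Edem1* and *Sel1l* had -0.13 and -0.12. Of 20 genes of sestrins, mTORC1 and amino acid sensing, 0 were called, and 1 was higher and 2 were lower at the unadjusted threshold (15.0%). The median was -0.00 and groups were apart in 4 of 20, the highest share of the related lists. Other ATF4 targets, tRNA synthetases and glutathione genes also lay above the 11.4% of all genes in this respect. The transporters and the unfolded protein response lay below it, and in the eIF2 and serine lists no gene had its groups apart. *Rragd*, a Rag GTPase that recruits mTORC1 to lysosomes, had 0.18, *Castor2*, of the arginine sensor family, -0.38 and *Rptor*, the scaffold of mTORC1, -0.20. Of 14 genes of glutathione and NRF2, 0 were called and 1 was lower at the unadjusted threshold (7.14%). It was glutathione synthetase *Gss* (-0.35, or -0.18 without WT replicate 1). *Chac2*, the relative of *Chac1*, measured 4.59 ± 0.658 CPM in the WT and 6.02 ± 0.97 CPM in the 5C libraries (SD, n = 3 each), a difference of 0.41 on the log2 scale (adjusted p 0.781), and *Gpx4* had -0.15.

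**Figure D5:**
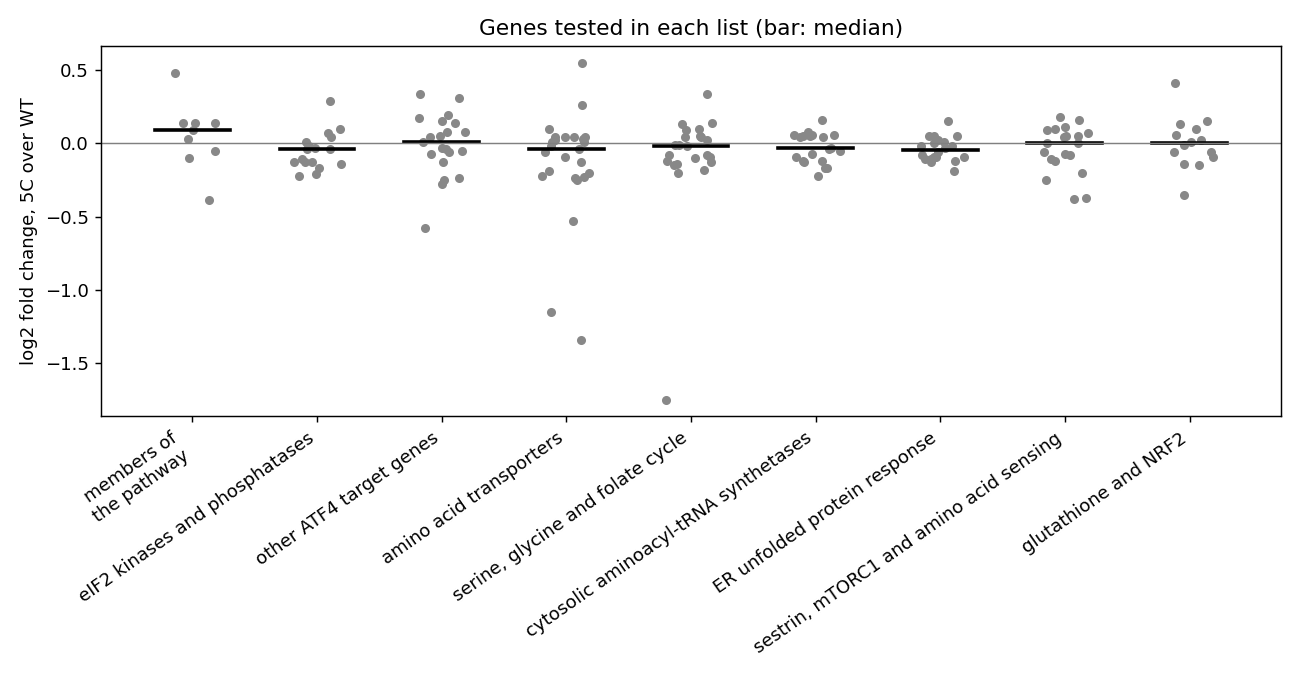
Log2 fold change of 5C over WT for every gene tested in each list, with 1 point per gene and a bar at the median. Medians lie between -0.04 and 0.09, and the lowest point is *Folr1* at -1.75.

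Marker genes of other tissues were read in the same fit, in which 6.02% of all genes passed the unadjusted threshold. Of the 12 yolk sac endoderm markers 1 was lower at the unadjusted threshold, with a median log2 fold change of -2.09 that was 0.73 over the 11 still tested without WT replicate 1. *Amn*, *Trf* and *Apob* had -2.33, -2.10 and -2.59. Of the 5 decidual markers tested 3 were higher at that threshold, the granzymes *Gzmg* (2.24), *Gzmc* (2.03) and *Gzmf* (1.63), and 0 were called. Without 5C replicate 3 none of the 5 passed the unadjusted threshold (0 of 5, median 0.80 in place of 1.82), and without WT replicate 1 it was 0 of 7. Of the 7 erythroid markers 0 passed the unadjusted threshold, and of the 12 whole embryo markers *Sox2* (0.25) and *Twist1* (0.21) were higher, followed by *Pax6* (0.16), with 0 called.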

How the data were processed

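The authors deposited raw counts per gene, made from stranded poly(A) libraries read from 1 end and aligned by STAR to GRCm38 (Ensembl annotation). Which strand column was counted is not given in the sources used here. Symbols and positions came from GENCODE M21 on GRCm38, where 55141 of 55401 identifiers matched, and sequences from RefSeq. From the counts, edgeR 4.0.16 in R 4.3.3 was run with filterByExpr, TMM scaling and the two-sided quasi-likelihood F-test (legacy form), adjusted by Benjamini-Hochberg over all genes tested. A gene was called at a fold over 1.5 with an adjusted p under 0.05. The biological coefficient of variation was 13.6%. CPM used the scaled totals, and the SE was the log2 fold change divided by the square root of F. The interval of a summed-count ratio was exact, at 95%. The fit was tested on simulated counts: the share of false calls was above the nominal level when counts were drawn with the dispersion of each gene, and below it with the trended dispersion.

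The members and lists were chosen with earlier results of these data known. Named genes were the 10 members, *Mir483* and the 3 genes of smallest unadjusted p in each other list, and others are marked. Genotype came from the sample titles. Equal replicate numbers are not said to mark shared litters, so the numbers were not taken as pairs. Deviations from the group means of same-numbered libraries correlated at -0.174, 0.202 and -0.166 across genes. With 3 libraries a genotype, such values can neither show nor exclude shared litters. Alternatives were other scalings, filters and tests (DESeq2 1.42.0, limma-voom 3.58.1, newer and robust edgeR forms), the replicate block, offsets for GC content, removal of mitochondrial and globin genes, and each library left out. P-values measure the spread between pools of embryos.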

Additional observations from a re-analysis of the deposited data

How the results depend on the processing

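Over the 9 members and 18 alternatives, 153 of 162 log2 fold changes kept their direction and side of the threshold, and 9 changed direction. No member was called under any alternative. The count of called genes over all genes was 319 without a count filter, 11 in DESeq2, 3 with robust moderation and 0 to 1 with a library left out, and the count at an unadjusted p under 0.05 was 2170 without a filter, 513 with the replicate block and GC offsets together and 456 to 1803 with a library left out. Members at that threshold numbered 3 without a filter (*Phgdh*, *Trib3* and *Chac1*), 2 with GC offsets (*Phgdh* and *Atf4*) and 0 to 1 with a library left out. The cause of these differences was not tested. The replicate block alone gave 0 called genes, 782 genes at an unadjusted p under 0.05 and 1 member, and changed no call.

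With a library left out, log2 fold changes ran from -0.061 to 0.23 for *Ddit3*, -0.49 to 0.91 for *Trib3*, -0.14 to 0.1 for *Sesn2*, -0.004 to 0.24 for *Asns*, -0.16 to 0.13 for *Shmt2*, -2.66 to 0.23 for *Folr1*, -3.13 to 0.38 for *Trf*, -5.23 to 0.41 for *Apob*, -0.18 to 0.4 for *Alas2*, -0.17 to 0.33 for *Hbb-y*, -0.17 to 0.22 for *Klf1*, -0.25 to 0.14 for *Psph* and -0.11 to 0.0049 for *Slc3a2*. Values that kept their sign but moved by over 1.5 times were those of *Atf4* (0.047 to 0.14), *Psat1* (-0.17 to -0.04), *Phgdh* (-0.56 to -0.24), *Slc7a11* (0.035 to 0.28), *Eif2b2* (-0.3 to -0.11), *Ppp1r15a* (0.19 to 0.5), *Aldh1l2* (0.2 to 0.52), *Slc38a1* (-0.29 to -0.14), *Slc7a7* (-1.48 to -0.19), *Slc43a2* (-0.73 to -0.13), *Hyou1* (-0.27 to -0.12), *Edem1* (-0.17 to -0.072), *Sel1l* (-0.22 to -0.038), *Gss* (-0.46 to -0.18), *Gzmg* (1.32 to 2.66), *Gzmc* (1.24 to 2.51), *Gzmf* (0.8 to 2.26) and *Mthfd2* (0.029 to 0.073). *Sesn2* was 0.0067 with GC offsets and 0.0023 with the replicate block and GC offsets. With a library left out, list medians ran from -0.108 to 0.141 for the members, -0.106 to -0.032 for the eIF2 list, -0.092 to 0.000 for the serine list, -0.050 to 0.029 for the tRNA synthetases, -0.039 to 0.026 for the sestrin list, -0.073 to 0.082 for other ATF4 targets, -0.113 to 0.005 for the transporters, -0.091 to 0.007 for the unfolded protein response and -0.04 to 0.016 for glutathione. The median of the synthetases was 0.01 with GC offsets and 0.009 with the block added, and that of the sestrin list 0.04 and 0.041. Depth limits *Chac1*, with 1 to 12 counts a library.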

Other observations

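The ratio of *Phgdh* to *Psat1*, the first and second enzymes of serine synthesis, was compared within each library after the values were seen. Per kilobase and on the log2 scale it was -2.10, -2.06 and -2.10 in WT and -2.12, -2.26 and -2.81 in 5C. Every 5C library was below every WT library, 5C replicate 1 only narrowly. The means were -2.09 ± 0.03 and -2.40 ± 0.36 (SD, n = 3 each), a difference of -0.31 on the log2 scale. A two-sided exact permutation test gave p = 0.1, the smallest that 3 libraries against 3 allow, so that this test could not have passed. The difference rested on 5C replicate 3: without it the 5C mean was -2.19 and the difference -0.10.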
